A study of Mus musculus with 6 samples.

Results

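The ubiquitin-specific proteases (USPs) of mouse male germ cells were described by their m6A peaks. Members were all rows of the authors' deposited tables whose gene name starts with Usp followed by a digit, leaving out Usp9y, a choice that uses no measured value. They came to 103 of 24127 peaks, on 47 of 13334 genes, in the ClpP comparison, and to 100 of 23681 peaks, on 45 of 13085 genes, in the ClpX comparison. Of the 47 names 45 are deubiquitinases by family. The other 2, Usp6nl, a GTPase-activating protein for Rab proteins, and Usp46os2, an antisense transcript of Usp46, carry only the name.

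RNA carrying N6-methyladenosine (m6A) was captured with an antibody and sequenced from germ cells that the labels call spermatocytes, taken at postnatal day 35. The 3 genotypes were wild type (WT), a conditional knockout (cKO) of ClpP and a cKO of ClpX, each with 1 library of captured RNA (IP) and 1 of total RNA before capture (input). Both deletions were driven by Stra8-Cre, a Cre recombinase under the promoter of a gene that male germ cells switch on before meiosis; the sources used here do not give whether WT animals carried Cre or floxed alleles, nor how many animals went into a library. ClpP is the protease subunit and ClpX the unfoldase of the ClpXP complex of the mitochondrial matrix, and the study set out to compare mitochondrial function between control and knockout spermatocytes.

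With 1 library per group no value has a replicate error. Each table compares 4 libraries and gives every peak 1 fold enrichment (read as IP over input) and 1 log2 fold change between genotypes. Both tables share the 2 WT libraries. Positive log2 fold changes are read as more m6A enrichment in the knockout; the order of the names in each table, knockout before WT, is the sole basis for that sign. The words called higher and called lower stand for an adjusted p below 0.05 for the genotype difference in the authors' deposited table, and such a call compares these libraries, not the genotypes in general. Read counts were not used here, so the depth behind each peak is unknown. Coordinates are on GRCm38 (mm10).

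Ubiquitin is a small protein that is attached to other proteins, singly or in chains, to mark them for the proteasome, for sorting at membranes, or for a change of partner. USPs are cysteine proteases that cut it off again, and they form the largest family of deubiquitinases. Different members act on histones, at the DNA replication fork, on endosomes, on the outer mitochondrial membrane and at the proteasome. Sperm formation removes many proteins and most histones, and several USPs are abundant in the testis. m6A is a mark on messenger RNA, often near the stop codon, that reader proteins use to alter the fate of the transcript.

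One stretch of sequence under a called peak was at hand, because the RefSeq promoter window of Usp46os2 happens to cover it. The stretch lies in Usp46, a gene with calls in both directions in ClpP cKO. It is the middle of the 3 blocks of a Usp46 peak that was called lower in ClpP cKO, at chr5:74035548-74035641 on the minus strand (RefSeq, GRCm38.p6), printed 5′ to 3′ on the strand of Usp46 with the letters GGAC, the core of a frequent m6A sequence context, in capitals.
Usp46 block: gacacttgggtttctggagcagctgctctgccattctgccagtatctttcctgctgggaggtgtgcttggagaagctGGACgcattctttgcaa
Of its 94 bases 1 site read GGAC on this strand, and the longer GGACT, which contains GGAC, was found 0 times. On the same strand of the 32851 RefSeq promoter windows, cut to the same length and place, 29.6% held GGAC and 9.31% held GGACT. These shares are for promoter windows, not for blocks of peaks. A match describes these letters and does not show a methylated site.

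In ClpP cKO, 28 of the 103 Usp peaks (27.2%) were called, against a background of 19.6% of all peaks. Of them 20 were called lower (19.4%, background 12.8%) and 8 higher (7.77%, background 6.74%). The median log2 fold change of Usp peaks in the authors' deposited table was 0.07, against -0.03 over all peaks, and was -0.24 when each gene was given its peak of smallest p. Most of the decreases were small. When a change of at least 1 on the log2 scale was also required, 4 Usp peaks were called lower and 6 higher. Shares over all peaks are not given for this rule. Over all peaks of that table, too, decreases were the smaller calls: the median log2 fold change was -0.83 for peaks called lower and 1.32 for those called higher. For Usp peaks these medians were -0.75 and 1.43. In ClpX cKO the family stood at the background: 20 of 100 peaks were called (20.0%, background 20.1%), 15 of them higher (15.0%, background 15.1%) and 5 lower (5.0%, background 5.0%). The median log2 fold change was 0.21, against 0.24 over all peaks of the authors' deposited table. When that table-wide median was subtracted, the family's median was -0.03, and each of the 20 calls kept its own direction.

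Counted by gene, 19 of 47 had a called peak in ClpP cKO (40.4%, background 28.8%) and 15 of 45 in ClpX cKO (33.3%, background 29.3%). Usp genes carried 2.19 peaks on average in the ClpP table and 2.22 in the ClpX table, against 1.81 over all genes in both. The share of genes with a call was not adjusted for this number.

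**Figure D1:**
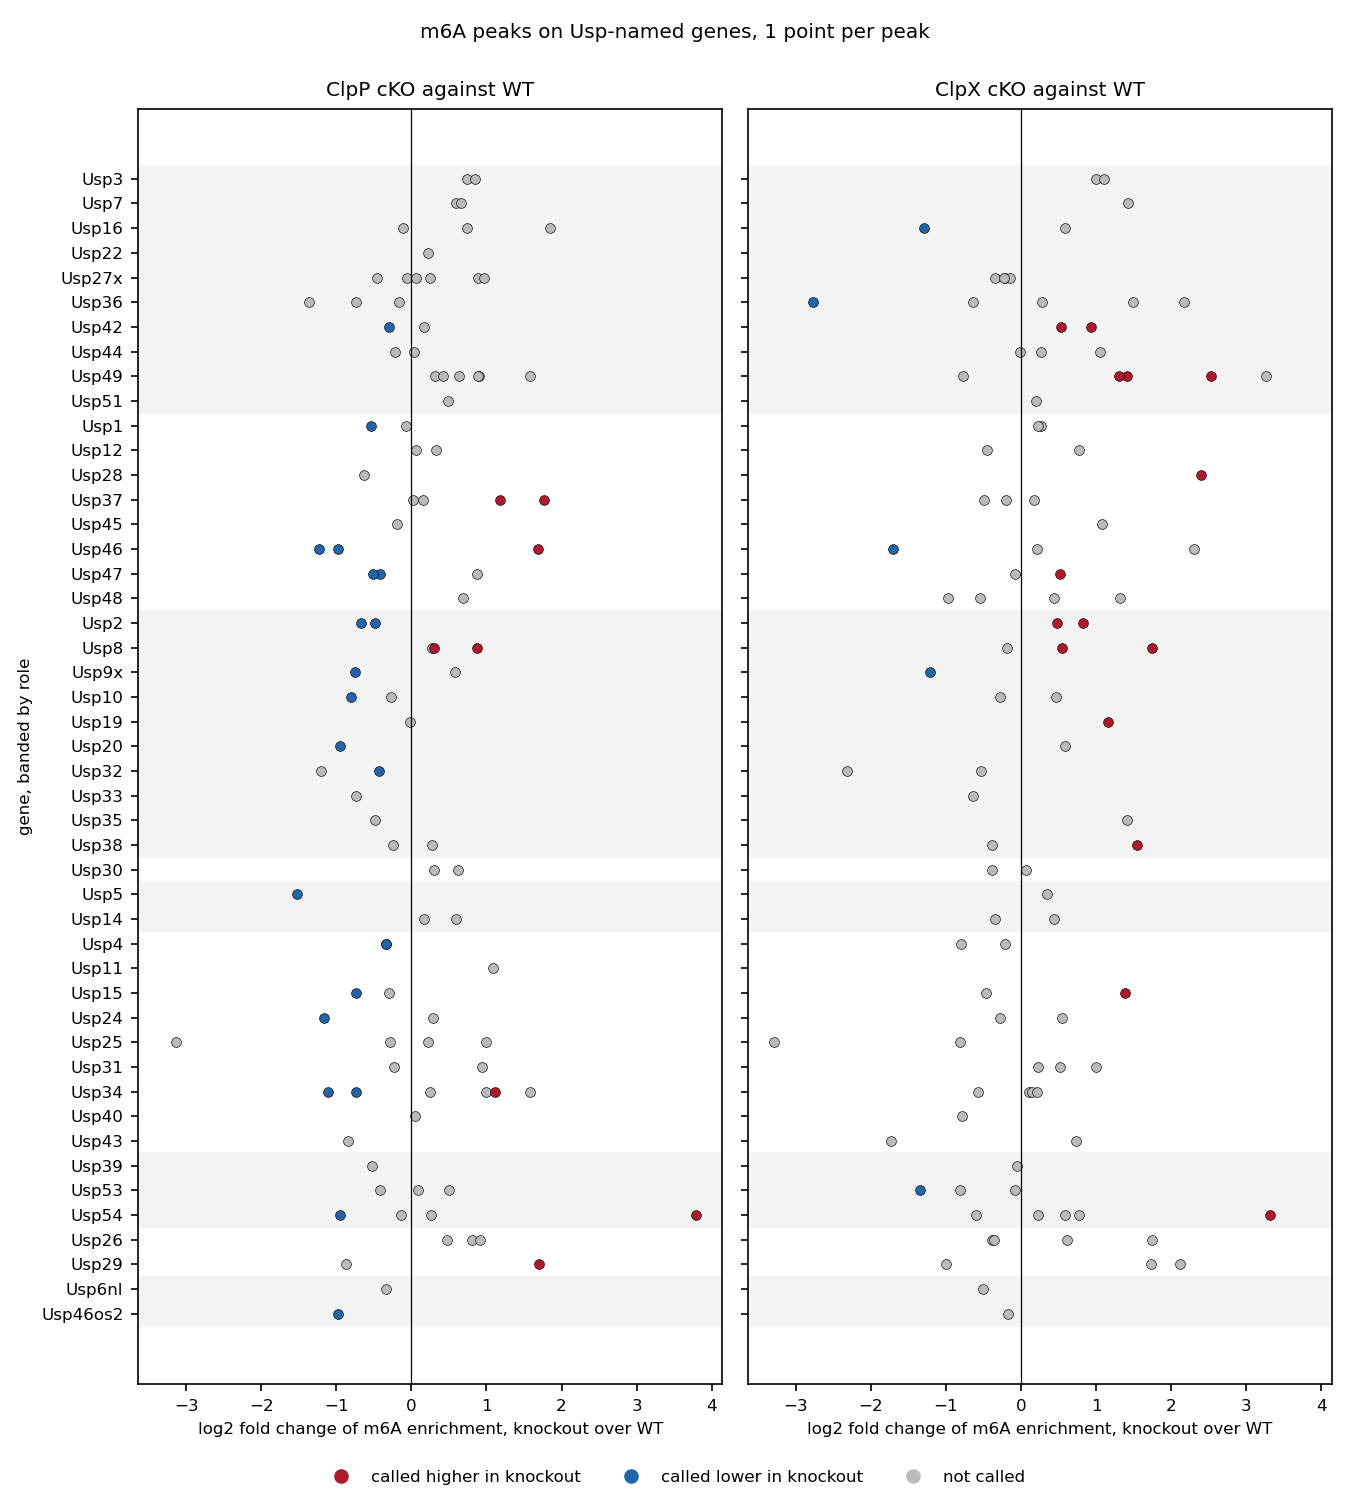
Each point is 1 m6A peak on a gene named Usp; the horizontal axis gives its log2 fold change (knockout over WT) and the vertical axis the genes, banded by role, with the ClpP comparison on the left and the ClpX comparison on the right. Red points were called higher and blue points lower at an adjusted p under 0.05; the 20 blue points of the ClpP panel lie between -1.52 and -0.30.

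The counts by role that follow are small and are to be read against the shares of all peaks, 6.74% higher and 12.8% lower in ClpP cKO and 15.1% higher and 5.0% lower in ClpX cKO. Among members that act on chromatin, most of which remove ubiquitin from histone H2A or H2B, 0 of 28 peaks on 10 genes were called higher in ClpP cKO and 1 lower. That peak is on Usp42. In ClpX cKO 5 of 25 peaks on 9 genes were called higher and 2 lower. Of the 5 called higher 3 belong to Usp49, an H2B deubiquitinase, with log2 fold changes of 1.41 (chr17:47650023-47672491), 1.31 (chr17:47672880-47673388) and 2.53 (chr17:47679857-47681028) and adjusted p-values of 0.0036, 0.00022 and 0.00043 in the authors' deposited table. All 3 share bases on the same strand with peaks of the predicted gene Gm20517, so their gene is uncertain. A further Usp49 peak, which also shares bases with a Gm20517 peak, stood at 3.27 in the authors' deposited table but was not called (adjusted p 0.095). The most 3′ Usp49 peak, which shares bases with no other gene's peak, was at -0.77 and not called.

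The nucleolar enzyme Usp36 and the H2A deubiquitinase Usp16 held the chromatin group's decreases in ClpX cKO. Usp36 was called lower at -2.77 (chr11:118260937-118261416, adjusted p 0.006, fold enrichment 14.0) in the authors' deposited table, the deepest called decrease among Usp peaks in either comparison. The overlapping Usp36 peak of the ClpP table had the strongest enrichment of the family, 102-fold. Its genotype difference of -1.37 on the log2 scale (adjusted p 0.051) was not called in the authors' deposited table. Usp16 was called lower at -1.30 (chr16:87476766-87479841, adjusted p 0.017) in ClpX cKO, and its counterpart in ClpP cKO was at -0.11 in the authors' deposited table. Usp22, the H2B deubiquitinase of the SAGA coactivator, had 1 peak, in the ClpP table, at 0.22 and not called. Usp7, which acts on Mdm2 and p53, had weakly enriched peaks in the ClpP table (1.75 and 1.66-fold) at 0.59 and 0.66 and a different one in the ClpX table at 1.42 in the authors' deposited table, and none was called.

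DNA repair and cell cycle members had 17 peaks on 8 genes in ClpP cKO, 3 called higher and 5 lower, and 18 peaks in ClpX cKO, 2 higher and 1 lower. Usp1, which together with the cofactor Wdr48 removes ubiquitin from Fancd2 and Pcna, had the smallest adjusted p of the family: its 3′ peak (chr4:98932976-98934946) was called lower in ClpP cKO at -0.54 (adjusted p 5e-19, fold enrichment 16.0) in the authors' deposited table. The same peak was at 0.23 in ClpX cKO (adjusted p 0.19, not called). A more 5′ peak of Usp1 was at -0.08 in ClpP cKO and 0.26 in ClpX cKO in the authors' deposited table, and neither was called.

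Usp46, which also works with Wdr48, had calls in both directions in ClpP cKO. Its peak near the 3′ end of the gene (chr5:74000069-74000757) was called lower at -1.23 (adjusted p 3.2e-06, fold enrichment 22.1) in the authors' deposited table. A weakly enriched inner peak (chr5:74029219-74032332, fold enrichment 2.33) was called higher at 1.68, and the next one upstream (chr5:74032452-74037038, fold enrichment 2.97), whose middle block is printed above, lower at -0.98. These adjusted p-values were 0.0011 and 0.032 in the authors' deposited table. The upstream peak shares bases with the peak of the antisense transcript Usp46os2 on the plus strand, which was itself called lower at -0.97 (adjusted p 0.01), so reads of one may have been counted for the other. In ClpX cKO the 3′ peak was again called lower, at -1.71 (adjusted p 0.00013), while the upstream peak was at 0.21 in the authors' deposited table. Usp12, the closest paralog of Usp46, had a peak in the last 10% of its gene span at 0.06 in ClpP cKO and -0.46 in ClpX cKO in the authors' deposited table, neither called.

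Usp37, which acts on cyclin A, was called higher at 2 peaks in ClpP cKO, 1.18 near the 3′ end (chr1:74438925-74440005, adjusted p 4.2e-05) and 1.76 within the gene (chr1:74495661-74495983, adjusted p 0.0043), in the authors' deposited table. In ClpX cKO the first of these was at 0.17 and was not called, and the inner peak had no counterpart. Usp47, which acts on DNA polymerase beta, was called lower at 2 peaks in ClpP cKO, with -0.42 (chr7:112092662-112093651) and -0.51 (chr7:112108683-112110702) in the authors' deposited table. The second of these was called higher in ClpX cKO at 0.51, with an adjusted p of 0.047, the largest among Usp calls in that table. Usp28, a checkpoint and Myc-linked member, was called higher in ClpX cKO at 2.40 (chr9:49041470-49041740, adjusted p 0.0015) and stood at -0.63 in ClpP cKO (adjusted p 0.35) in the authors' deposited table.

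**Figure D2:**
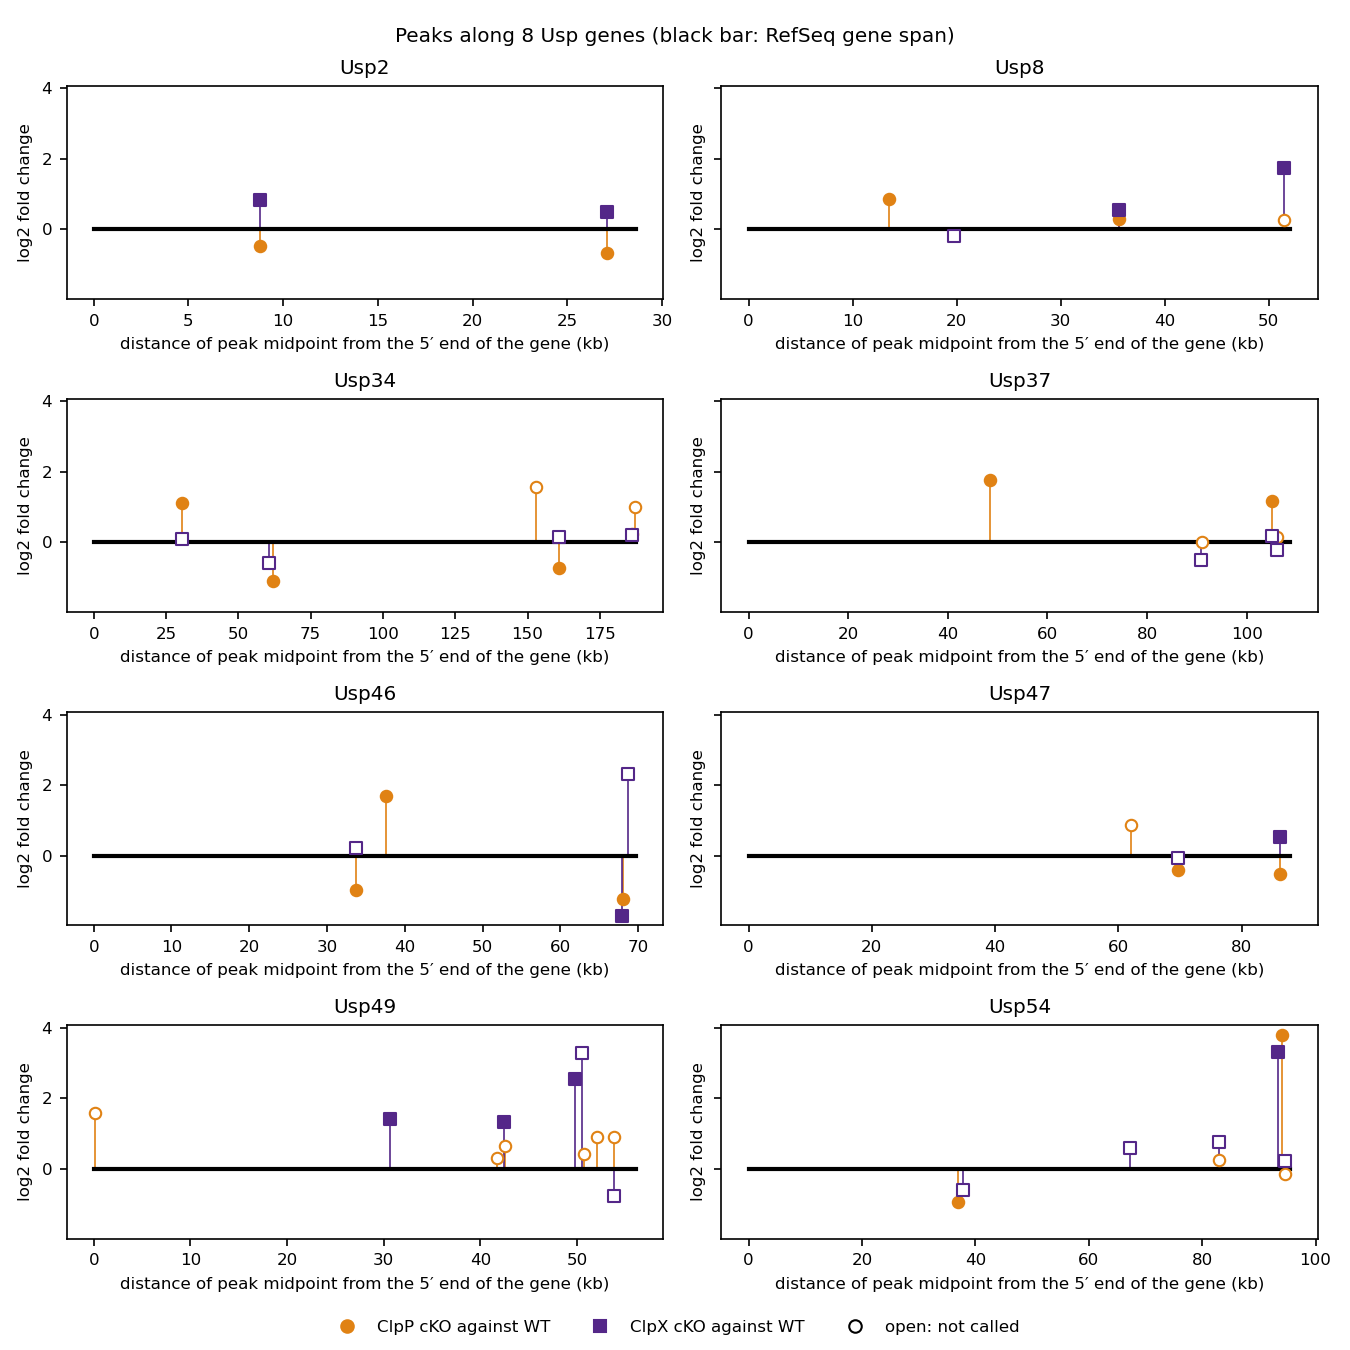
Each panel is 1 Usp gene; the horizontal axis gives the distance of a peak's midpoint from the 5′ end of the gene in kb, the vertical axis its log2 fold change (knockout over WT), and the black bar the RefSeq gene span. Orange circles are the ClpP comparison, purple squares the ClpX comparison, and filled symbols were called; both Usp2 peaks lie below 0 for ClpP and above 0 for ClpX, whereas Usp46 has filled ClpP circles on both sides of 0.

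Members grouped here under endosomes, membranes and trafficking had 17 peaks on 10 genes in ClpP cKO, 2 called higher and 6 lower. In ClpX cKO they had 16 peaks, 6 called higher and 1 lower. Over all peaks too, calls were more often lower in ClpP cKO (12.8% against 6.74% higher) and more often higher in ClpX cKO (15.1% against 5.0% lower). Usp2, a cyclin D1 deubiquitinase known to be prominent in the testis, was called in every peak it had. Its inner peak (chr9:44075383-44076191) was at -0.49 in ClpP cKO (adjusted p 0.002) and at 0.83 in ClpX cKO (adjusted p 0.00024) in the authors' deposited table. Its 3′ peak (chr9:44093862-44094370) was at -0.67 (adjusted p 2.5e-13) and 0.48 (adjusted p 0.0078). Both Usp2 peaks were thus called lower in one knockout and higher in the other.

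Usp8, which spares endosomal receptors such as Egfr from degradation and is linked to acrosome formation, was the member of this group called higher in both comparisons. A long peak of 7 blocks over its 5′ part (chr2:126707478-126733968) was called higher in ClpP cKO at 0.87 (adjusted p 3.6e-08), and the shorter counterpart was at -0.19 in ClpX cKO, in the authors' deposited table. The middle peak (chr2:126738043-126747527) was called higher in both, at 0.30 in ClpP cKO and 0.54 in ClpX cKO. At the 3′ end (chr2:126758578-126758848) the value was 1.75 in ClpX cKO (adjusted p 8.7e-08, fold enrichment 2.99) and 0.27 in ClpP cKO in the authors' deposited table, the latter not called. The large X-linked enzyme Usp9x was called lower in both, at -0.76 in ClpP cKO (chrX:13154193-13157684, adjusted p 0.0068) and -1.22 in ClpX cKO (adjusted p 0.0032) in the authors' deposited table.

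Further members of this group were called in 1 comparison. In ClpP cKO the authors' deposited table gave -0.81 for the 3′ peak of Usp10 (chr8:119956721-119957410, adjusted p 0.002, called lower), a partner of the stress granule protein G3bp1. Usp20, which recycles cell surface receptors, was called lower at -0.96 (chr2:31007830-31010468, adjusted p 5e-05), and the membrane-bound Usp32 at -0.43 (chr11:84986212-84992553, adjusted p 0.0038). The ClpX values of these peaks were 0.46, 0.58 and -0.53 in the authors' deposited table, none called. In ClpX cKO Usp19, which is anchored in the endoplasmic reticulum, was called higher at 1.16 (chr9:108490692-108493239, adjusted p 3.6e-05, fold enrichment 20.5) in the authors' deposited table. Its ClpP value at the same place was -0.02. Usp38 was called higher at 1.55 in ClpX cKO in the authors' deposited table, at a peak that shares bases with one of Gm9725 on the other strand.

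Usp30, the member of the outer mitochondrial membrane that opposes Parkin-driven mitophagy, had 2 peaks near its 3′ end and no call. They were at 0.30 and 0.62 in ClpP cKO (adjusted p 0.36 and 0.19) and at -0.39 and 0.07 in ClpX cKO (adjusted p 0.31 and 0.62) in the authors' deposited table. Usp5, which takes apart free ubiquitin chains, was called lower at -1.52 in ClpP cKO (chr6:124815377-124817029, adjusted p 1.2e-07, fold enrichment 4.6), the deepest called decrease of the family in that comparison. In ClpX cKO the Usp5 peak was at 0.35 in the authors' deposited table (adjusted p 0.35) and was not called. Usp14, the deubiquitinase that sits on the proteasome, had peaks at 0.17 and 0.60 in ClpP cKO and at -0.35 and 0.44 in ClpX cKO in the authors' deposited table, none called, and the first of each table shares bases with a peak of Thoc1 on the other strand.

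The signalling members, with the paralogs Usp4, Usp11 and Usp15, had 21 peaks on 9 genes in ClpP cKO, 1 called higher and 5 lower, and 18 peaks on 8 genes in ClpX cKO, 1 higher and 0 lower. Usp34, which stabilises axin in the Wnt pathway, again combined both directions in ClpP cKO. Its most 5′ peak (chr11:23333439-23333828) was called higher at 1.11, while peaks at chr11:23363173-23367350 and chr11:23464279-23464698 were called lower at -1.11 and -0.73, with adjusted p-values of 0.0029, 1.2e-07 and 0.00014 in the authors' deposited table. The ClpX counterparts in the authors' deposited table were at 0.10, -0.58 and 0.14, none called. Usp15, which acts in TGF-beta signalling, was called lower at -0.74 at its stronger peak (chr10:123113245-123119175, fold enrichment 11.8) in ClpP cKO, and higher at 1.38 at a weak one (chr10:123125499-123125835, fold enrichment 2.04) in ClpX cKO, in the authors' deposited table. In the ClpP table that weak Usp15 peak had the lowest enrichment of any Usp peak, 1.47-fold, and was at -0.29 without a call in the authors' deposited table. Usp24, at chr4:106436763-106439284, and Usp4, at chr9:108391036-108392245, were called lower in ClpP cKO at -1.16 and -0.34 (adjusted p 0.00025 and 0.013), with ClpX values of -0.29 and -0.21 in the authors' deposited table. Usp11 had 1 peak, at its 5′ end in the ClpP table, at 1.09 and not called.

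Of the members tied to splicing or long classed as lacking catalytic activity (Usp39, Usp53 and Usp54), Usp54 held the largest change of the family. A short peak of 120 bases near its 3′ end (chr14:20550289-20550408, fold enrichment 4.5) was called higher in ClpP cKO at 3.79 (adjusted p 0.041, the largest of any Usp call in that table), and the overlapping one in ClpX cKO at 3.32 (adjusted p 0.017), in the authors' deposited table. A well enriched inner peak of Usp54 (chr14:20607156-20607905, fold enrichment 14.7) was called lower at -0.95 in ClpP cKO and stood at -0.60 in ClpX cKO in the authors' deposited table. Usp53 was called lower in ClpX cKO at -1.35 (chr3:122949125-122951307, adjusted p 0.0032) and was at 0.09 in ClpP cKO in the authors' deposited table.

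The germ line members had 1 call. Usp29, an imprinted gene, was called higher in ClpP cKO at 1.70 (chr7:6962123-6963771, adjusted p 0.018, fold enrichment 32.9) and was at 1.73 in ClpX cKO without a call (adjusted p 0.44) in the authors' deposited table. All Usp29 peaks share bases with peaks of Zim3 on the other strand, so the gene is uncertain. Usp26, an X-linked gene of the testis, had 3 peaks at 0.47 to 0.91 in ClpP cKO and 4 at -0.38 to 1.75 in ClpX cKO in the authors' deposited table, none called. Usp6nl, the Rab regulator that shares only the name, had 1 strong peak per table, at -0.33 in ClpP cKO (fold enrichment 36.2) and -0.50 in ClpX cKO (fold enrichment 27.8) in the authors' deposited table, neither called.

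Usp peaks of the 2 tables were matched by shared bases on the same strand, which gave 83 pairs on 43 genes. Unpaired were 20 Usp peaks of the ClpP table and 17 of the ClpX table. The share of all peaks that pair is not given here, so whether these counts are usual cannot be said. Because both comparisons use the same WT libraries, and how either table was scaled is unknown, only the paired values are set side by side here. Called lower in ClpP cKO and higher in ClpX cKO were both Usp2 peaks, the 3′ peak of Usp47 and the broad 3′ peak of Usp42. Calls over all peaks leaned the same way, more often lower in ClpP cKO and more often higher in ClpX cKO. Usp42 is a nuclear deubiquitinase tied to p53. Usp42 at chr5:143710745-143715972 (2310 bases over 4 blocks) was at -0.30 in ClpP cKO (adjusted p 0.00013) and 0.53 in ClpX cKO (adjusted p 6e-06) in the authors' deposited table. A second, weaker Usp42 peak upstream was called higher in ClpX cKO at 0.93 and was at 0.17 in ClpP cKO in the authors' deposited table. Called the same way in both were the 3′ peak of Usp46, the Usp9x peak, the middle Usp8 peak and the short Usp54 peak.

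**Figure D3:**
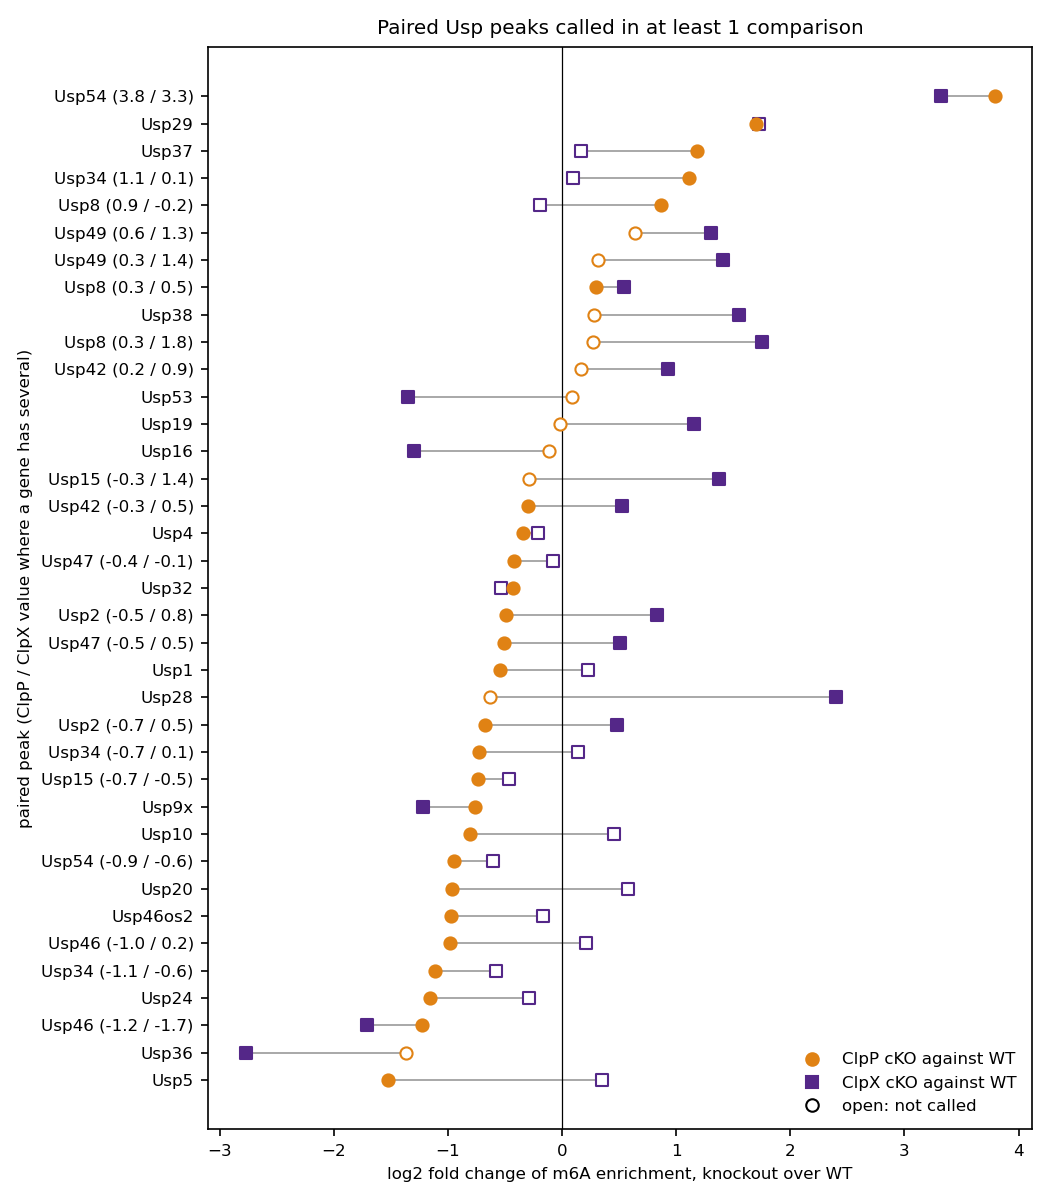
Each row is 1 m6A peak of a Usp gene found in both tables and called in at least 1; the horizontal axis gives its log2 fold change (knockout over WT), as an orange circle for ClpP and a purple square for ClpX, filled where called. Both Usp2 rows, the 3′ peak of Usp47 and the broad peak of Usp42 have filled circles left of 0 and filled squares right of 0; the WT libraries are the same in both comparisons.

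Usp peaks were longer than the average peak, with a median of 451 bases in the ClpP table and 434.5 in the ClpX table against 301 and 300. The widest was the broad Usp42 peak, with 2400 bases in the ClpX table. They were more often split over several blocks, 46.6% against 29.7% in the ClpP table and 40.0% against 27.5% in the ClpX table. Of the Usp peaks that could be placed on a RefSeq gene span, 44 of 102 (ClpP) and 50 of 99 (ClpX) had their midpoint in the last 10% of the gene, or 43.1% and 50.5%, against 38.8% and 37.3% of all placed peaks. In the first 10% lay 4.9% and 3.03% of Usp peaks, against 8.78% and 10.8%. These shares were not tested, and whether a peak lies in coding sequence or a UTR was not analysed here. Most peaks per gene, 6, were listed for Usp27x, Usp34 and Usp49 in the ClpP table, and 5 for Usp36, Usp49 and Usp54 in the ClpX table. The peak of Usp46os2 was not placed, since it lies outside the span that RefSeq gives that transcript.

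Within the family, called peaks were the longer ones: the median length was 615.5 bases over the 28 called and 360 over the 75 not called in ClpP cKO, and 539 and 401 in ClpX cKO. The values that stayed uncalled were not always small. Usp25, a member that acts in innate immune signalling, had a peak of 120 bases at -3.14 in ClpP cKO (chr16:77093729-77093848, adjusted p 0.23) and one of 150 bases at -3.29 in ClpX cKO (adjusted p 0.25) in the authors' deposited table. The 21 genes without a call, Usp3, Usp6nl, Usp7, Usp11, Usp12, Usp14, Usp22, Usp25, Usp26, Usp27x, Usp30, Usp31, Usp33, Usp35, Usp39, Usp40, Usp43, Usp44, Usp45, Usp48 and Usp51, held 38 peaks in each table. Their log2 fold changes ran from -3.14 to 1.09 in ClpP cKO (median 0.23) and from -3.29 to 1.75 in ClpX cKO (median 0.03) in the authors' deposited table.

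Peaks called higher were less enriched than those called lower. Usp peaks called higher had a median fold enrichment of 4.88 in the ClpP comparison and 4.43 in the ClpX comparison, and those called lower 10.2 and 16.0, in the authors' deposited table. Over all peaks of the same tables the figures were 3.83 and 4.28 for peaks called higher, and 7.97 and 16.2 for those called lower. In ClpX cKO the median log2 fold change of Usp peaks was 0.54 over the 29 with the lowest enrichment, 0.22 over the 41 between 5.55 and 12.8-fold and -0.32 over the 30 with the highest, bounds that split all peaks into 3 classes of about equal size, against 0.69, 0.21 and -0.19 for all peaks of the authors' deposited table. In ClpP cKO, split at 5.1 and 12.3-fold, the medians were 0.29, -0.14 and -0.11, against 0.11, -0.09 and -0.14. The part of enrichment in the calls was not tested.

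**Figure D4:**
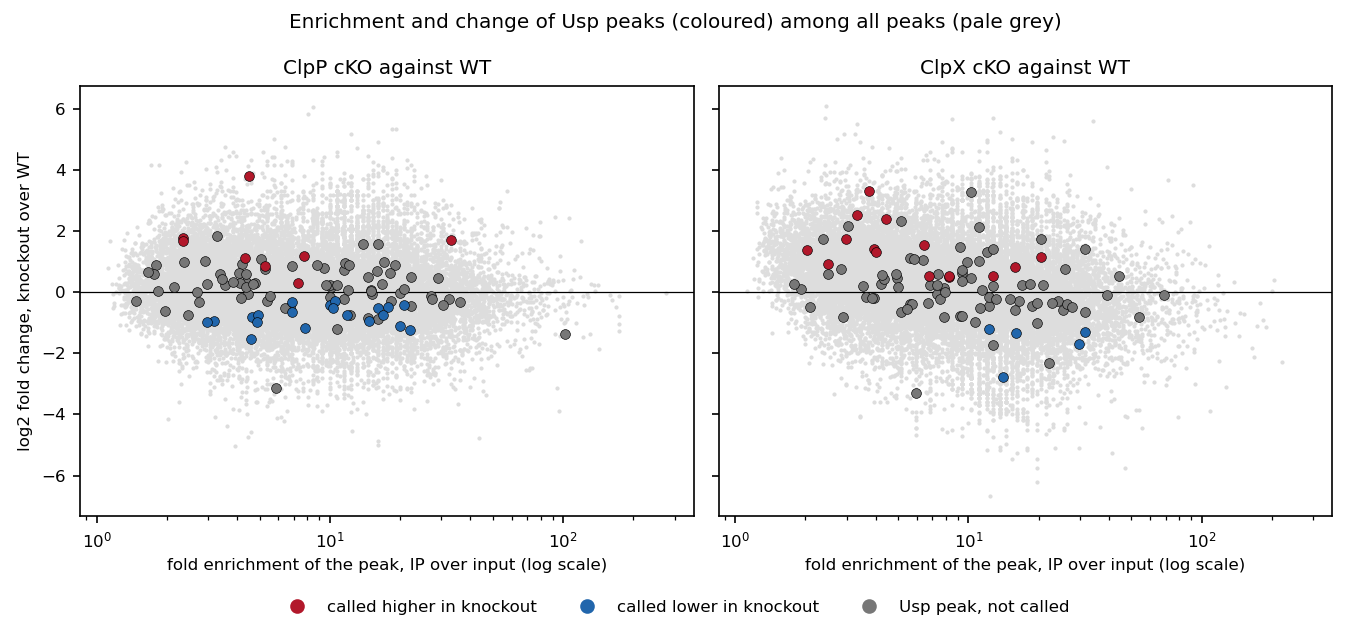
Each point is 1 peak; the horizontal axis gives its fold enrichment (IP over input, log scale) and the vertical axis its log2 fold change (knockout over WT), for the ClpP comparison on the left and the ClpX comparison on the right. Usp peaks are red (called higher), blue (called lower) or dark grey over all other peaks in pale grey; in the ClpX panel the blue points lie at enrichments of 12.2 and above, and the red ones have a median of 4.43.

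Deubiquitinases without a Usp name (the OTU, UCH, Josephin, JAMM and MINDY families, with Cyld) were counted beside the Usp genes. Of 44 symbols 30 had a peak in each table; in ClpP cKO 3 of their 50 peaks were called higher and 6 lower, and in ClpX cKO 7 of 45 higher and 4 lower, beside 6.74% higher and 12.8% lower, and 15.1% higher and 5.0% lower, over all peaks. Zranb1, which trims branched chains, was called lower in both, at -1.22 and -0.96, and Otub2 lower in ClpP cKO at -1.02 in the authors' deposited table. Bap1, the H2A deubiquitinase, was called higher in ClpX cKO at 1.56. Partners of Usp enzymes and ubiquitin genes had 3 of 27 peaks called higher and 7 lower in ClpP cKO, and 8 of 29 higher and 1 lower in ClpX cKO. Wdr48, the cofactor of Usp1, Usp12 and Usp46, was called lower at -0.41 in ClpP cKO and higher at 0.40 in ClpX cKO in the authors' deposited table. Ubb, which encodes ubiquitin itself, was called higher in both, at 0.85 and 1.56, in the authors' deposited table. Both Ubb peaks were weakly enriched, 1.47-fold in the ClpP table and 2.07-fold in the ClpX table.

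The labelled cell type could be checked by the presence of peaks alone, since the tables give no RNA levels. Of 8 spermatocyte markers 7 had a peak in the ClpP table and 5 in the ClpX table. Markers of other cells were present too: of 5 Leydig cell markers 2 had a peak in the ClpP table (0 of 4 peaks called) and 4 in the ClpX table (2 of 5 peaks called higher, range 0.38 to 2.11). Of 7 peritubular, endothelial and immune markers 3 and 4 had a peak, with 3 of 8 and 3 of 11 peaks called higher and 0 lower. A peak was found for 5 of 6 spermatid markers in the ClpP comparison and for all 6 in the ClpX comparison. For spermatogonium markers, and likewise for Sertoli cell markers, it was 5 of 6 in each comparison. Presence of peaks therefore did not set spermatocytes apart from spermatids, spermatogonia or Sertoli cells. Spermatid markers had 2 of 7 peaks called higher in ClpP cKO and 6 of 8 in ClpX cKO, spermatogonium markers 1 of 11 and 5 of 8, Sertoli cell markers 1 of 9 and 3 of 8, and spermatocyte markers 4 of 15 and 1 of 8. Called lower were 1 spermatogonium, 2 Sertoli and 2 spermatocyte marker peaks in ClpP cKO and 1 Sertoli marker peak in ClpX cKO. Over all peaks 6.74% were called higher in ClpP cKO and 15.1% in ClpX cKO. The part of cell composition in the Usp values was not tested, and in such bulk RNA fewer cells of a type and less RNA per cell cannot be told apart.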

How the data were processed

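The series holds 6 m6A-seq libraries, 1 IP and 1 input for each of 3 genotypes, grouped by their titles. The files used were 2 tables of the authors' own comparisons of each knockout with WT, resting on 4 libraries each. Per the file headers, each line is 1 peak with its blocks along a transcript, scores that are the log10 of adjusted and unadjusted p-values, a linear fold enrichment ratio of IP over input, and a log2 fold change between genotypes, all deposited by the authors. Coordinates follow GRCm38 (mm10), which the submitters' processing notes name; for aligner, peak caller and depth normalisation the sources used here give nothing. A table-wide shift in normalisation would move all its log2 fold changes together. The largest adjusted p of any listed peak against input was 0.0427, and sites outside the listed peaks were not analysed here.

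Members, roles and lists were chosen with earlier results of these data known. RefSeq's table of the same build holds 58 symbols that fit the member rule; all 47 member names matched it, and the other 11 were not analysed here. Calls used the authors' adjusted p under 0.05 and the sign of the log2 fold change, with no test of replicates. Named genes were every Usp gene with a call, together with Usp30, Usp26, Usp14, Usp7, Usp1, Usp9x, Usp8 and Usp22, the extremes of enrichment and change, and up to 4 called genes of each context list; the uncalled peaks of other members were named after their values were seen. Peaks were paired as best mutual overlaps of at least 1 base on the same gene and strand, and the pairing was tested on simulated data. Positions refer to RefSeq gene spans. Python 3.11.15 with pandas 2.3.3 was used. Alternatives were call thresholds of 0.01 and 0.1, a fold enrichment of at least 2, a change of at least 1 on the log2 scale, centring, a recomputed Benjamini-Hochberg adjustment, leaving out peaks shared with other genes, 1 value per gene, and a stricter overlap. A called gene of a context list is not reported here.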

Additional observations from a re-analysis of the deposited data

Results flagged for a closer look

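Peaks found in both tables were singled out where their calls in the ClpP and ClpX knockouts ran in opposite directions. There were 4: the inner Usp2 peak, whose log2 fold change was 1.32 higher in ClpX cKO than in ClpP cKO (0.83 against -0.49); the 3′ Usp2 peak, 1.15 higher (0.48 against -0.67); the broad Usp42 peak, 0.83 higher (0.53 against -0.30); and the 3′ Usp47 peak, 1.03 higher (0.51 against -0.51), all from the authors' deposited table. All 4 were lower in ClpP cKO and higher in ClpX cKO, and 0 pairs ran the other way. Calls over all peaks leaned likewise: 12.8% lower against 6.74% higher in ClpP cKO, and 15.1% higher against 5.0% lower in ClpX cKO. The share of opposite calls among pairs of all genes is not given here. The difference itself was not tested, since each genotype has 1 IP and 1 input library. The WT libraries are shared, and how either table was scaled is unknown.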

How the results depend on the processing

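No paired analysis was possible because each group has 1 library and the labels give no replicate numbers; for the same reason no library could be left out. All 28 called Usp peaks of the ClpP comparison and all 20 of the ClpX comparison kept direction and call under centring, a minimum fold enrichment of 2 and the recomputed adjustment. Centring leaves the adjusted p as it is, and all these peaks already had a fold enrichment above 2. Centring and the minimum enrichment therefore could not remove a call. At a threshold of 0.01, 5 and 3 lost the call. At 0.1, 13 Usp peaks in place of 8 were called higher in ClpP cKO. At that threshold 9 pairs in place of 4 had the same direction in both comparisons, which share WT. Shares over all peaks are not given for that threshold. When a change of at least 1 on the log2 scale was required, 4 peaks in place of 20 were called lower in ClpP cKO. Those called higher were 6 in place of 8. Shares over all peaks under this rule are not given for either comparison, so these counts describe the Usp peaks only. Over all peaks of the ClpP table the calls lower were also the smaller ones, with a median of -0.83 against 1.32 for calls higher. In ClpX cKO 9 in place of 15 were called higher and 5 lower. Fewer peaks can pass by construction. The median log2 fold change in ClpP cKO, 0.07, was 0.1 centred, -0.24 with the peak of smallest p per gene, -0.02 with gene means, -0.28 with the most enriched peak per gene and 0.04 without peaks shared with other genes. In ClpX cKO the median of 0.21 became -0.03, 0.23, 0.19, -0.06 and 0.16 in the same order. The median fold enrichment moved from 7.83 to 13.8 (most enriched peak per gene) and 9.44 (without shared peaks) in the ClpP table, and from 9.27 to 12.8 and 9.4 in the ClpX table. The sign of either median thus depends on how peaks are weighted. With depth unknown, what it limits cannot be stated.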

Other observations

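Usp27x, an X-linked gene whose product joins the same H2B deubiquitinase partners as Usp22, was listed with near-duplicate peaks. In the ClpP comparison the peak at chrX:7373317-7374362 had a log2 fold change of 0.89 (adjusted p 0.076) and the one at chrX:7373341-7374360 had 0.97 (adjusted p 0.059) in the authors' deposited table, and another pair began at 7374420 and 7374422 with -0.06 and 0.07. Such repeats enter the family's counts and medians more than once.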
